A study of Homo sapiens with 17 samples.

Results

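The early response to AZD5153 was measured by RNA-Seq in SF8628 cells after 24 hours, in 3 libraries from cells treated with 1 μM AZD5153 and 3 libraries from cells treated with the solvent DMSO as vehicle. These 6 libraries were chosen by treatment and time, out of 12 RNA-Seq libraries and 17 samples in all. The other 6 RNA-Seq libraries, from cells treated for 48 hours, entered the same fit and were used for the comparison of times. The CUT&RUN samples of chromatin were not analysed here. SF8628 is an established cell line from a pediatric diffuse midline glioma (DMG) and carries the lysine-to-methionine mutation of histone H3.3, which cells of every group shared. The cells were grown as monolayers in medium with fetal bovine serum, so the data describe 1 line in 1 growth condition. The labels do not say whether replicates came from separate cultures, so p-values measure only the spread between these libraries.

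BET proteins bind acetylated lysines of histones through paired bromodomains and help RNA polymerase II to leave the paused state near a gene's start. They do so in part through P-TEFb, the kinase CDK9 with a cyclin T, which is held inactive by HEXIM1 bound to the 7SK RNA. AZD5153 occupies both bromodomains of a BET protein at once and displaces BET proteins from chromatin. Genes that lie near large clusters of acetylated enhancers are known to be the most dependent on BET proteins, and inflammatory genes are a textbook example.

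All values are normalized counts, which are the reads on a gene divided by a size factor of the library that the authors computed. Reads on genes ranged from 17104000 to 27335220 in the DMSO libraries (median 21823948) and from 15759148 to 20669303 in the AZD5153 libraries (median 17222458). DMSO replicate 1 stood apart from its group. It scored -41.8 on the second principal component (8.1% of the variance) against 16.9 and 27.8 for DMSO replicates 2 and 3, and AZD5153 libraries scored between -10 and 5.1. Treatment separated the libraries on the first component (81.1% of the variance). In these cells the oligodendrocyte-lineage genes OLIG2, OLIG1, NKX2-2 and MOG were at 0 in every library of 24 hours, and SOX10 and PDGFRA were too low to be tested. Of the 12 listed genes of this lineage 4 were tested, of which 1 was higher and 3 were lower, and the list summed to 5139 to 6419 normalized counts in DMSO and 4576 to 5048 in AZD5153. Their part in the results was not tested. GFAP, an astrocyte marker, had means of 41.9 normalized counts in DMSO and 28.9 in AZD5153. Of the 12 listed myeloid markers AIF1, C1QA, C1QB and TYROBP were also at 0, as were the endothelial CDH5, FLT1 and EMCN. TMEM119 of the myeloid list had 37, 164 and 121 reads in DMSO and 2, 3 and 2 in AZD5153. The myeloid list summed to 232 to 345 normalized counts in DMSO and 47.1 to 56.3 in AZD5153, with 2 of 3 tested markers lower. Of the 8 listed endothelial genes 3 were tested, of which 1 was higher and 2 were lower. The endothelial list summed to 337 to 388 normalized counts in DMSO and 69.8 to 95.2 in AZD5153, and its part in the results was not tested. In RNA from whole cultures, fewer cells of a kind and less RNA per cell cannot be told apart.

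AZD5153 changed most of the measured transcriptome within 24 hours. Genes were tested where their normalized counts averaged 10 or more over all 12 libraries, which held for 15599. Of these, 5287 (33.9%) were higher and 5392 (34.6%) were lower than in DMSO, together 68.5% of the genes tested. A gene was called where its limma p-value, adjusted by the Benjamini-Hochberg method over all genes tested, was under 0.05. The AZD5153 libraries did not overlap the DMSO libraries in 10727 genes (68.8%). Differences are given as log2 fold changes of normalized count + 1, where 1 is a 2-fold difference, with their standard error (SE). Past a log2 change of 1, falls outnumbered rises, with 2450 genes lower (15.7%) and 1690 higher (10.8%). Past 2 there were 820 lower and 386 higher genes, and past 3 there were 261 lower and 113 higher genes. The quartiles of all log2 fold changes were -0.61 and 0.52. Without DMSO replicate 1 the calls were 5309 higher and 5494 lower. Scaling the libraries to equal totals moved the median of all genes by -0.12 and the calls to 4340 higher and 6293 lower. Quantile normalization gave 5696 higher and 4973 lower. Every scaling used here is relative, and no measure of RNA per cell was used. A change in the total RNA of a cell would not be seen, so rises and falls are relative to the other genes. Every count of list members below is read against these background shares, and no test of a list was run. Only members that passed the minimum mean were tested, and a gene that passed through the libraries of 1 treatment alone had to be higher in it.

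**Figure D1:**
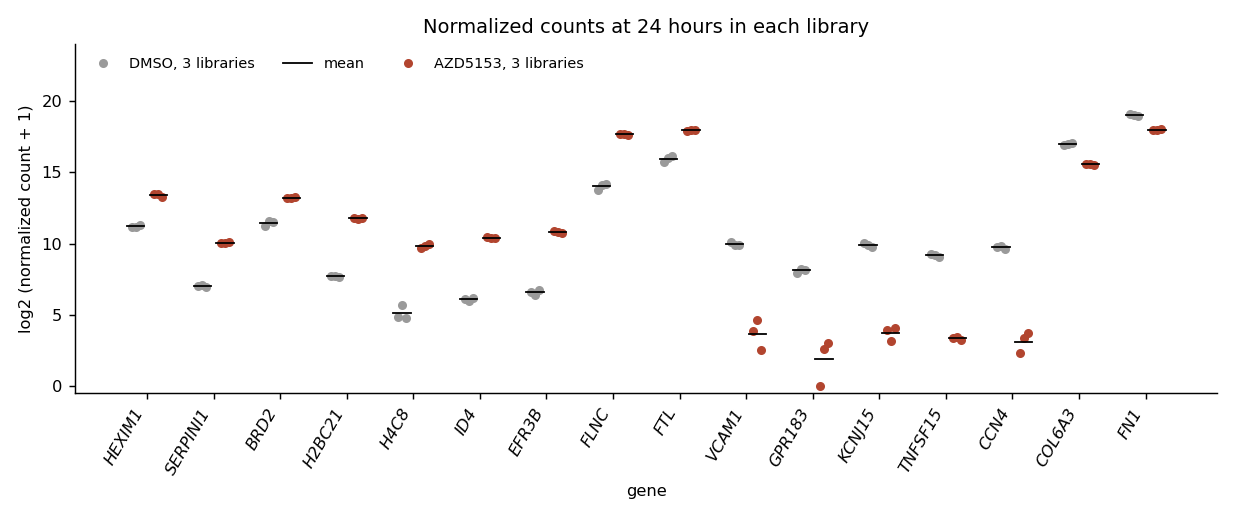
Values of 16 genes at 24 hours on the y axis, as log2(normalized count + 1), in each of the 3 DMSO and 3 AZD5153 libraries, with a bar at the mean of the plotted values. The groups do not overlap in any plotted gene, and the lowest AZD5153 point is GPR183 in replicate 1, at 0 counts.

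HEXIM1 and SERPINI1, known as markers of BET inhibition, rose. HEXIM1 (ENSG00000186834, chr17:45148475-45152099, GENCODE 44 on GRCh38) encodes the inhibitor of P-TEFb. It had 2302, 2318 and 2522 normalized counts in the 3 DMSO libraries and 11206, 11187 and 9881 in the 3 AZD5153 libraries. Its lowest AZD5153 library stood well above its highest DMSO library, and the log2 fold change was 2.17 (SE 0.055, limma adjusted p = 3.11e-14). SERPINI1 (ENSG00000163536, chr3:167735243-167825569), the serine protease inhibitor neuroserpin, had 128, 136 and 126 in DMSO and 1066, 1078 and 1089 in AZD5153, a log2 difference of 3.04 (SE 0.081, limma adjusted p = 4.82e-14). Among the targets of the drug, BRD2 (ENSG00000204256, chr6:32968594-32981505) rose from 2421, 3026 and 2978 to 9443, 9274 and 9796, by 1.77 (SE 0.069, limma adjusted p = 3.58e-12). BRD3 had 1316, 1404 and 1532 in DMSO and 1326, 1424 and 1319 in AZD5153, ranges that overlapped, with a log2 difference of -0.06 (SE 0.067, limma adjusted p = 0.433). Under scaling to equal totals BRD3 was called lower, at -0.18. CDK9, the kinase of P-TEFb, rose by 0.39 (SE 0.063, limma adjusted p = 4.71e-05), and CCNT2, a cyclin of this kinase, fell by 0.39 (SE 0.084, limma adjusted p = 0.000729). Of 10 tested BET and P-TEFb genes, 3 were higher, 1 was lower and 6 were not called, and under equal totals the counts were 3 higher and 3 lower. Without DMSO replicate 1 they were 4 higher and 2 lower.

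The promoters of 4 genes are shown because the TATA box near the start and the letters TTTGAA are the motifs whose shares are given for rising and falling genes, and CCAAT is common in histone promoters. The sequences are those of RefSeq on GRCh38.p14 and run 5′ to 3′ on the strand of the gene, 250 bases that end just before the annotated start. Capitals mark the TATA box letters TATAAA and the CCAAT box on either strand in H2BC21, HEXIM1 and VCAM1, and the letters TTTGAA in FST. H2BC21 and HEXIM1 rose, VCAM1 and FST fell.
H2BC21, chr1:149886683-149886932, minus strand: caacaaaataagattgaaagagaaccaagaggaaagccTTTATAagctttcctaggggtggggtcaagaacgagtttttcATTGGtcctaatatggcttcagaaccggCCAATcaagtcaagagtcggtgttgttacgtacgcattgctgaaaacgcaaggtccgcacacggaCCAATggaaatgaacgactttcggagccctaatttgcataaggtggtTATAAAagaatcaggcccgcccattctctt
HEXIM1, chr17:45148225-45148474, plus strand: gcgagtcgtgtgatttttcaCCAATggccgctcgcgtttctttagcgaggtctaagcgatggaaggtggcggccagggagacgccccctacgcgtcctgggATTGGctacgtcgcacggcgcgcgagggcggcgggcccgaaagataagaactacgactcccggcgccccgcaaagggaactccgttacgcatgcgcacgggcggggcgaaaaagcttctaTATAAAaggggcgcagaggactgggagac
VCAM1, chr1:100719492-100719741, plus strand: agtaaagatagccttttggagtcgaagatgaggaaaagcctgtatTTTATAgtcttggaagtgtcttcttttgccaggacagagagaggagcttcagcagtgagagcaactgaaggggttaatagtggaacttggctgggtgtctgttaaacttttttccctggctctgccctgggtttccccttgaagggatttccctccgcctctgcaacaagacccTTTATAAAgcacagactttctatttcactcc
FST, chr5:53480379-53480628, plus strand: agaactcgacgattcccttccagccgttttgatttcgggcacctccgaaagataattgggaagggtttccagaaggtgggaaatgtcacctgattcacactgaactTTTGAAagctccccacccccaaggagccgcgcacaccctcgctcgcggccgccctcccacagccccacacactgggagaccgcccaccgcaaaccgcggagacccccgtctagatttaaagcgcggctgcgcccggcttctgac
TATAAA began 30 bases before the start of H2BC21 and 29 bases before the starts of HEXIM1 and VCAM1, on the strand of the gene. H2BC21 also held CCAAT on its own strand at 142 and 77 bases before the start, and HEXIM1 held it at 230 bases before. CCAAT was in 36.6% of all promoters, in 36.8% of those of genes called higher, in 35.9% of those called lower and in 81.2% of those of replication-dependent histones. In VCAM1 the TATAAA letters overlap the same motif on the other strand. In FST, TTTGAA began 144 bases before the start. A match of letters is a description and not a site of binding.

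Every tested replication-dependent histone gene was higher. Replication-dependent histone genes supply the nucleosome proteins of new DNA in S phase, most of their transcripts end in a stem-loop without a poly(A) tail, and the sources used here do not say whether poly(A) RNA was selected. Of 67 such genes in the table, 33 passed the minimum mean, and all 33 of these were higher with AZD5153, each past a log2 change of 1, against 33.9% and 10.8% of all genes. Their median log2 fold change was 3.16. The 34 others were too low to be tested, and a gene that passed the minimum only through its AZD5153 libraries had to be higher, so the count is a description of the 33. H2BC21 (ENSG00000184678, chr1:149884459-149886682), an H2B gene, had 214, 207 and 199 in DMSO and 3558, 3446 and 3549.5 in AZD5153. Its change on the log2 scale was 4.08 (SE 0.076, limma adjusted p = 1.41e-15). The linker histone gene H1-2 (ENSG00000187837, chr6:26055740-26056470) had 170.2, 214 and 199 and 2982, 2931 and 2545, a log2 difference of 3.86 (SE 0.086, limma adjusted p = 7.32e-15). For the H4 gene H4C8 the DMSO values were 28.2, 51.2 and 26.7 and the AZD5153 values 822, 926 and 1005, a log2 increase of 4.72 (SE 0.20, limma adjusted p = 6.49e-12). None of these ranges overlapped. H2BC5 rose by 4.22 and H2BC8 by 4.72, and H4C5 had only 0, 2.1 and 3.6 counts in DMSO against 131, 104 and 148 in AZD5153. Histone genes of a family are near-identical in sequence, so how the counting shared reads among copies is uncertain for each single gene. H2BC18 (7.9, 16.4 and 25.9 in DMSO, 554, 636 and 635 in AZD5153) and FCGR1A, an Fc receptor gene of myeloid cells, lie on opposite strands and share 177 exon bases, which are 9.84% and 8.21% of their exon bases. FCGR1A had 2 reads in each DMSO library and 223, 276 and 257 in the AZD5153 libraries. As the sources used here do not state whether counting used the strand, the rises of FCGR1A and H2BC18 cannot be told apart.

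Beyond histones, the largest rises included regulators of differentiation and parts of the cytoskeleton. ID4 (ENSG00000172201, chr6:19837370-19842197), 1 of 4 inhibitors of DNA binding that sequester basic helix-loop-helix factors, had 68.8, 61.2 and 71.3 normalized counts in DMSO and 1386, 1333 and 1368 in AZD5153. The log2 fold change was 4.33 (SE 0.26, limma adjusted p = 5.89e-10). ID1 rose by 3.47, ID2 by 3.14 and ID3 by 2.66, and in all 4 genes every AZD5153 library lay above every DMSO library. EFR3B (ENSG00000084710, chr2:25042076-25159135), which anchors a phosphatidylinositol 4-kinase at the plasma membrane, went from 98.1, 81.9 and 109 to 1913, 1834 and 1696, a log2 difference of 4.23 (SE 0.11, limma adjusted p = 6.24e-14). TUBB3 (ENSG00000258947, chr16:89921392-89938761), the tubulin typical of neurons, had 28.2, 26.3 and 13.4 and 414, 382 and 410.0, and rose by 4.16 (SE 0.23, limma adjusted p = 2.21e-10). FLNC (ENSG00000128591, chr7:128830406-128859274), the actin cross-linker filamin C, combined a large change with a high count. It had 13962, 17782 and 18536 in DMSO, lowest in replicate 1, and 210624, 213429.9 and 202022 in AZD5153, a log2 increase of 3.65 (SE 0.075, limma adjusted p = 3.92e-15). FGFR3, a receptor of fibroblast growth factors, rose from 9.0, 10.0 and 16.9 to 188, 239.6 and 195 (4.05, SE 0.30, limma adjusted p = 6.39e-09).

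The largest falls left some well-counted genes with few reads. CCN4 (ENSG00000104415, chr8:133191039-133231690), a matricellular protein known as a Wnt target, had 879, 895 and 792 in DMSO and 4.0, 9.2 and 12.2 in AZD5153. VCAM1 (ENSG00000162692, chr1:100719742-100739045), the adhesion molecule that leukocytes bind on activated endothelium, had 1130.5, 973 and 947 and 13.4, 23.5 and 4.9. Their log2 fold changes were -6.60 (SE 0.37, limma adjusted p = 2.07e-10) and -6.31 (SE 0.35, limma adjusted p = 2.22e-10). GPR183 (ENSG00000169508, chr13:99294539-99307399), an oxysterol receptor, went from 250.2, 298 and 289.7 to 0, 5.1 and 7.3, with 1 AZD5153 library at 0. KCNJ15 (ENSG00000157551, chr21:38155549-38307357), an inward rectifier potassium channel, went from 1069.7, 969 and 862 to 14.7, 8.2 and 15.9, and TNFSF15 (ENSG00000181634, chr9:114784652-114806039), a cytokine of the TNF family, from 609.8, 594 and 531 to 9.4, 10.2 and 8.6. These 3 had log2 fold changes of -6.24, -6.16 and -5.80, with limma adjusted p = 3.98e-07, 3.27e-11 and 3.39e-13. The cold-sensing channel TRPM8 (log2 fold change -5.12), the BMP type I receptor ACVRL1 (-4.95) and APOL6, an apolipoprotein L (-4.77), fell in the same way. Each of these 8 genes had at least 166.8 normalized counts in every DMSO library and at most 24.6 in every AZD5153 library. With so few reads left, the size of the fold change depends on the 1 added to each count.

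Most tested inflammatory genes were lower. Of 29 inflammatory cytokines and NF-κB targets in the table, 20 passed the minimum mean. Of these, 16 were lower, 3 were higher and 1 was not called, against 34.6% lower and 33.9% higher among all genes. The median log2 fold change was -1.75 against 0 for all genes. A gene that passed only through its DMSO libraries had to be lower, so the count is a description of the 20. CSF1 (ENSG00000184371, chr1:109910242-109930992), the growth factor of macrophages, had 1854, 2248 and 2217 in DMSO and 458, 512 and 404 in AZD5153 (-2.20, SE 0.088, limma adjusted p = 4.24e-12). ICAM1, an adhesion molecule, had 162, 184 and 203 and 38.9, 33.8 and 19.6 (-2.58, SE 0.32, limma adjusted p = 3.2e-06). The neutrophil chemokine CXCL8 fell from 42.8, 39.1 and 38.3 to 1.3, 3.1 and 4.9, and CXCL1 from 28.2, 21.4 and 28.5 to 0, 6.1 and 1.2, both low in every library. NFKB1, which encodes the p50 subunit of NF-κB, fell by 1.52 (SE 0.062, limma adjusted p = 5.41e-12). Against the group, NFKBIA, the inhibitor IκBα, rose by 0.52 (SE 0.082, limma adjusted p = 3.65e-05) and IL11, a cytokine of the IL-6 family, by 0.85 (SE 0.24, limma adjusted p = 0.00587), with 92.4, 182 and 157 in DMSO and 300.3, 242 and 214 in AZD5153. The third rise was NFKBIE. The summed level of the myeloid markers was low, at 232 to 345 in DMSO and 47.1 to 56.3 in AZD5153, with 2 of 3 tested markers lower, and their part in the result was not tested.

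Interferon-stimulated genes fell likewise, with few exceptions. Of 37 tested, 31 were lower and 4 higher, with a median of -1.68. RSAD2 (ENSG00000134321, chr2:6865557-6898239), the antiviral enzyme viperin, had 134, 118 and 111 in DMSO and 5.4, 4.1 and 1.2 in AZD5153 (-4.87, SE 0.52, limma adjusted p = 4.69e-07). IFIT2, which binds viral RNA, went from 270.5, 229.9 and 234 to 13.4, 34.8 and 18.4 (-3.51, SE 0.24, limma adjusted p = 2.56e-09). IFI44 (-2.11) and OAS1, a sensor of double-stranded RNA (-2.0), fell too. Among those that rose, IFI6 rose by 1.71 (SE 0.16, limma adjusted p = 1.57e-07) and the ubiquitin-like modifier ISG15 by 0.64 (SE 0.14, limma adjusted p = 0.00063).

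Antigen presentation genes moved in both directions, with 6 of 15 tested higher and 7 lower. HLA-C and B2M, which encode parts of the class I molecule itself, rose. HLA-C had 1350.3, 1866 and 2152 in DMSO and 3792, 3924 and 3279 in AZD5153, with a log2 fold change of 1.06 (SE 0.12, limma adjusted p = 1.1e-06). DMSO replicate 1 was lowest, and no AZD5153 library reached down to a DMSO library. B2M, the light chain of class I molecules, rose by 0.48 (SE 0.040, limma adjusted p = 2.61e-08). Of the other listed genes, ERAP1, ERAP2, PSMB8, PSMB9, TAP1 and TAPBP, which prepare or load peptides, were lower, as was NLRC5, an activator of class I genes. CALR, a chaperone of peptide loading and the most abundant gene of the list, was higher by 0.12 (SE 0.040, limma adjusted p = 0.0158), a call that was lost under 8 of 18 alternatives, with -0.01 under equal totals and -0.05 under quantile normalization. ERAP2, a peptidase that trims peptides in the endoplasmic reticulum, went from 222, 161 and 150.7 to 6.7, 14.3 and 17.1 (-3.77, SE 0.31, limma adjusted p = 2.18e-08). PSMB8, a subunit of the immunoproteasome, went from 412, 597 and 636 to 139, 118 and 133 (-2.04, SE 0.14, limma adjusted p = 2.92e-09). Reads of the HLA genes can be shared with other class I genes.

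**Figure D2:**
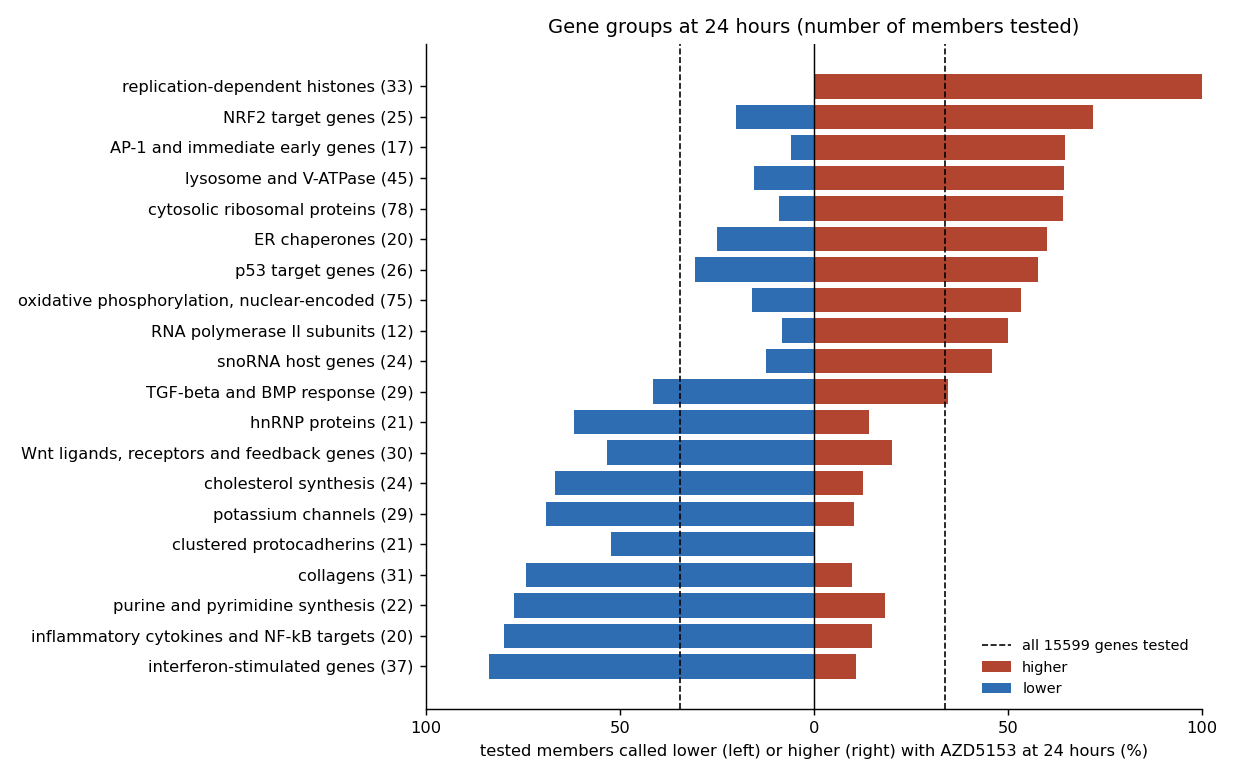
Share of the tested members of 20 gene groups called lower (bars to the left) or higher (bars to the right) with AZD5153 at 24 hours, in percent, with the number tested in parentheses and dashed lines at the shares of all 15599 genes tested (34.6% lower, 33.9% higher). Histone genes reach 100% higher, and interferon-stimulated genes reach 83.8% lower.

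Extracellular matrix genes, which SF8628 expressed at high counts, held some of the largest losses of normalized counts. Of 31 tested collagens, 23 were lower and 3 higher, with a median of -1.15. FN1 (ENSG00000115414, chr2:215360440-215436073), fibronectin, had 565042, 525127 and 506074 normalized counts in DMSO and 256751, 256648 and 263421 in AZD5153. The log2 difference was -1.04 (SE 0.045, limma adjusted p = 1.27e-11). Under quantile normalization it was 0.0, a value fixed in advance. FN1 had the highest count in every library of 24 hours, and this scaling gives the highest gene of each library the same value. COL6A3 (ENSG00000163359, chr2:237324003-237414328), a chain of microfibrillar collagen VI, went from 126014, 132514 and 134445 to 49432, 49514 and 47668 (-1.42, SE 0.039, limma adjusted p = 6.84e-14). COL1A1, a chain of fibrillar collagen I, went from 42070.4, 52484 and 54745 to 15396, 15450.4 and 14713 (-1.70, SE 0.072, limma adjusted p = 8.9e-12), and its partner chain COL1A2 fell by 2.26. COL4A1 of basement membranes fell by 1.93, and the low COL3A1 from 31.6, 47.7 and 64.2 to 0, 4.1 and 1.2. The 3 higher collagens were COL4A5, COL4A6 (1.19) and COL11A2 (1.39). Markers of fibroblasts and pericytes, a list that holds COL1A1 and COL3A1 too, were lower in 9 of 10 members, and their summed level was 50645 to 63484 in DMSO and 18171 to 18840 in AZD5153. In that list FAP, a surface protease, went from 773, 687 and 606 to 45.6, 44 and 50.2, and LUM, a collagen-binding proteoglycan (-1.86), and THY1 (-0.48) fell. Their part in the matrix result was not tested.

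Receptors and enzymes of the matrix did not follow the collagens as 1 group. Integrins split into 9 lower and 6 higher of 20 tested, and laminins into 5 lower and 3 higher of 10. ITGA3 (ENSG00000005884, chr17:50055968-50090481), a laminin receptor chain, rose from 49482, 59228 and 62576 to 146336, 146482 and 134212 (1.32, SE 0.069, limma adjusted p = 1.02e-10). ITGA10, a collagen receptor chain, fell from 342, 442 and 476 to 34.9, 52.2 and 51.4 (-3.17, SE 0.21, limma adjusted p = 1.34e-09). LAMC1, the common γ chain of laminins, rose by 0.33 and LAMA5 by 1.62. ITGAL, the αL chain known from leukocytes, rose from 51.8, 34.9 and 41.9 to 268, 253 and 266. Of 27 tested metalloproteases and inhibitors, 13 were lower and 8 higher. MMP1, interstitial collagenase, fell from 248, 216 and 282 to 14.7, 17.4 and 13.5 (-3.94, SE 0.30, limma adjusted p = 9.23e-09), while TIMP1, an inhibitor of such enzymes, rose from 1515, 1725 and 1669.8 to 3659, 3719 and 3554 (1.16, SE 0.054, limma adjusted p = 3e-11).

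Most genes of the oxidative stress response were higher. NRF2 is the factor that turns on antioxidant and detoxifying enzymes, and of 25 tested target genes 18 were higher and 5 lower, with a median of 0.92. FTL (ENSG00000087086, chr19:48965309-48966879), the ferritin light chain that stores iron, had 54469, 67067 and 70908 in DMSO and 249344, 253823 and 256567 in AZD5153, a log2 increase of 1.99 (SE 0.070, limma adjusted p = 1.2e-12). TXNRD1, thioredoxin reductase, had 7648, 8239 and 7953 and 47527, 47088 and 47838 (2.58, SE 0.039, limma adjusted p = 2.4e-16). NQO1, a quinone reductase, had 3384, 3388 and 3547 and 21942, 21821 and 21834 (2.67, SE 0.042, limma adjusted p = 2.4e-16). In each of these 3 the AZD5153 libraries lay close together and far above DMSO. PRDX1, a peroxidase, rose by 2.28, FTH1, the ferritin heavy chain, by 1.91, and GCLM of glutathione synthesis by 1.40. OSGIN1, an oxidative stress induced growth inhibitor, rose from 59.7, 108 and 165 to 1386, 1314 and 1165 (3.64, SE 0.23, limma adjusted p = 1.13e-09), and shares 8.22% of its exon bases with MLYCD on the same strand. The aldo-keto reductase AKR1C2 went the other way, from 463, 481 and 474 to 144, 126 and 182 (-1.66, SE 0.14, limma adjusted p = 4.11e-08). Of 8 tested metallothioneins, which bind zinc and copper, 3 were higher and 2 lower, with MT2A at 23227, 19561 and 19310.4 in DMSO and 51429.6, 52033 and 43941 in AZD5153 and MT1X at 31.6, 19.9 and 16 and 267, 241 and 215.

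Most lysosome genes were higher, and most genes of cholesterol and nucleotide synthesis were lower. Of 45 tested genes of the lysosome and its proton pump, 29 were higher and 7 lower (median 0.48). PSAP, the precursor of the saposins that help degrade sphingolipids, went from 14471, 16155 and 16149 to 29933, 30342 and 29474 (0.94, SE 0.044, limma adjusted p = 2.88e-11). ATP6V0A1, a subunit of the proton pump, rose by 1.73 and the sialidase NEU1 by 1.53, while the protease CTSS fell from 292, 255 and 257 to 16.1, 16.4 and 20.8. In cholesterol synthesis, 16 of 24 tested genes were lower and 3 higher (median -0.37). HMGCS1, which makes the HMG-CoA of this pathway, fell from 3066, 2738 and 2657 to 955, 1017 and 1111 (-1.46, SE 0.070, limma adjusted p = 4.19e-11), and INSIG1, the membrane sensor of sterols, fell by 0.21 (SE 0.060, limma adjusted p = 0.00536). TM7SF2, a sterol reductase, rose by 1.5. Fatty acid synthesis genes split into 11 lower and 8 higher of 20, with the desaturases low. SCD went from 29759, 30696 and 29975 to 11140.5, 10659 and 11153 (-1.46, SE 0.036, limma adjusted p = 2.27e-14) and FADS2 from 8812, 9749 and 10381 to 1714, 1638 and 1561 (-2.56). FASN, the synthase itself, had 53762, 70374 and 75688.5 in DMSO, lowest in replicate 1, and 82841, 83098 and 76372 in AZD5153. It rose by 0.29 (SE 0.091, limma adjusted p = 0.00994), but the call was lost under equal totals (0.17) and the sign turned under quantile normalization (-0.77).

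In purine and pyrimidine synthesis 17 of 22 genes were lower and 4 higher (median -0.51). PAICS, an enzyme of the purine ring, went from 14587, 12912 and 12604 to 6754, 6527 and 7002 (-0.98, SE 0.055, limma adjusted p = 2.22e-10). RRM2B, the ribonucleotide reductase subunit used outside S phase, rose from 409, 409 and 390.5 to 910.4, 914 and 1028 (1.23, SE 0.072, limma adjusted p = 3.96e-10). Nuclear-encoded genes of oxidative phosphorylation were higher in 40 and lower in 12 of 75 tested (median 0.25), and under equal totals 26 were higher and 14 lower. Genes of the citric acid cycle were higher in 8 and lower in 3 of 17, and 5 and 5 under equal totals. ATP5F1B, the catalytic β subunit of ATP synthase, rose by 0.49 (SE 0.050, limma adjusted p = 3.3e-07). OGDH of the citric acid cycle went from 3782, 4369.6 and 4812 to 13916, 13928 and 14177 (1.70, SE 0.063, limma adjusted p = 2.01e-12), and PKM, the last kinase of glycolysis, from 53821, 55523 and 57686 to 144737, 144587 and 141325 (1.37, SE 0.038, limma adjusted p = 7.44e-14). The 13 protein genes of the mitochondrial genome are listed at 0 and were not tested.

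Cytosolic ribosomal protein genes were more often higher than lower. Of 78 tested cytosolic ribosomal protein genes, 50 were higher and 7 lower, with a small median of 0.24. Without DMSO replicate 1 they were 59 and 7. The counts were 33 and 8 under equal totals and 28 and 14 under quantile normalization. RPLP0 of the ribosomal stalk rose by 0.55 (SE 0.053, limma adjusted p = 1.55e-07) and the elongation factor EEF1A1 by 0.39 (SE 0.042, limma adjusted p = 6.85e-07), but under quantile normalization they were at -0.18 and -0.38. RPL6 fell by 0.65 (SE 0.046, limma adjusted p = 3.38e-09). Of 77 mitochondrial ribosomal protein genes, 17 (22.1%) were higher and 26 (33.8%) lower, against 33.9% and 34.6% of all genes. Under equal totals 14 were higher and 41 lower. Genes that host small nucleolar RNAs were higher in 11 and lower in 3 of 24, and in 9 and 7 under equal totals, where their median was 0. Without DMSO replicate 1, 10 of these genes were higher and 5 lower. GAS5 went from 3343, 3313 and 3178 to 6649, 6694 and 6646 (1.02, SE 0.043, limma adjusted p = 8.68e-12) and SNHG9 went from 10.1, 7.8 and 11.6 to 64.4, 74.7 and 79.6. In protein folding, 12 of 20 chaperone genes of the endoplasmic reticulum were higher and 5 lower, with HSPA5 at 0.38 (SE 0.037, limma adjusted p = 1.67e-07). XBP1, which turns such genes on, fell from 734, 761 and 736 to 264, 230.4 and 256 (-1.57, SE 0.079, limma adjusted p = 6.17e-11). HSP90AA1, the inducible cytosolic HSP90, rose by 0.96 (SE 0.059, limma adjusted p = 6.35e-10) but was at -0.12 under quantile normalization, and the small heat shock protein CRYAB fell from 149.9, 136 and 127 to 38.9, 30.7 and 37.9.

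RNA polymerase II genes were more often higher and hnRNP genes more often lower. POLR2A (ENSG00000181222, chr17:7484366-7514616), the catalytic subunit, had 7886, 8852 and 8848 in DMSO and 17237, 17200.2 and 18225 in AZD5153 (1.04, SE 0.048, limma adjusted p = 2.37e-11). Of 12 subunit genes 6 were higher and 1 was lower, with POLR2L at 1.27, of which 22.8% of the exon bases are shared with CD151 on the opposite strand. Of 21 tested hnRNP genes, which bind nascent RNA, 13 were lower and 3 higher (median -0.21). HNRNPUL1 fell from 6339, 7086 and 7363 to 3671, 3684 and 3529.9 (-0.93, SE 0.053, limma adjusted p = 2.88e-10), while HNRNPH1 rose from 10611, 10589.9 and 10604 to 15044, 14490.0 and 14262 (0.46, SE 0.039, limma adjusted p = 3.28e-08). Mediator, which links enhancers to the polymerase, had 10 of 32 genes higher and 12 lower, and 11 higher and 10 lower under quantile normalization.

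Most immediate early genes rose. Of 17 tested genes of AP-1 and the early growth response, 11 were higher and 1 lower, with a median of 0.88. EGR1, a zinc finger factor induced within minutes by growth signals, had 892, 1130.3 and 1246 in DMSO and 4079, 4237 and 4294 in AZD5153 (1.96, SE 0.099, limma adjusted p = 6.57e-11). FOS, an AP-1 subunit, had 221, 247 and 263 and 1247, 1281 and 1115 (2.31, SE 0.13, limma adjusted p = 3.1e-10). The AP-1 partner JUNB rose by 1.15 (SE 0.12, limma adjusted p = 4.49e-07) and the stress factor ATF3 from 29.3, 51.2 and 49.9 to 134, 158 and 157 (1.80). Feedback genes of the ERK pathway split into 8 higher and 7 lower of 22, and into 8 higher and 10 lower under equal totals. DUSP6, a phosphatase of ERK, rose by 1.44 (SE 0.097, limma adjusted p = 2e-09) and CCND1, cyclin D1, from 7844, 7951 and 7695 to 19692, 19891 and 19400.0 (1.33, SE 0.039, limma adjusted p = 1.68e-13), whereas SPRED2, an inhibitor of RAS signalling, fell by 0.86 (SE 0.063, limma adjusted p = 5.81e-09).

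Notch and Wnt genes were more often lower than higher. In the Notch pathway 7 of 14 tested genes were lower and 3 higher. The ligand JAG1 went from 1871, 1897 and 1909.6 to 472, 447 and 459 (-2.04, SE 0.066, limma adjusted p = 4.38e-13), the receptor NOTCH3 from 3509.9, 4785 and 5340.2 to 751, 790.4 and 776 (-2.53, SE 0.11, limma adjusted p = 8.35e-12), and the target HES1 from 127, 166 and 153 to 21.5, 13.3 and 11 (-3.25, SE 0.32, limma adjusted p = 1.81e-07). HES6, which opposes HES1, rose by 2.70. Of 30 tested Wnt genes 16 were lower and 6 higher (median -0.39). The noncanonical ligands WNT5A and WNT5B fell from 1851, 1909.7 and 1762 to 316, 304 and 361 and from 1216, 1254 and 1349 to 84.5, 143 and 116, with log2 fold changes of -2.49 and -3.49. TGF-β and BMP genes split into 12 lower and 10 higher of 29. Among secreted members, INHBA, a subunit of activin, fell from 293, 271 and 249.6 to 29.5, 27.6 and 25.7 (-3.25, SE 0.22, limma adjusted p = 2.09e-09) and its antagonist FST from 160.1, 224 and 216 to 18.8, 16.4 and 20.8 (-3.34, SE 0.24, limma adjusted p = 5.25e-09). LTBP1, which holds latent TGF-β in the matrix, fell by 2.90. The rises in this list were the ID genes above, the pseudoreceptor BAMBI (2.31), the corepressor SKI (1.19), the inhibitory SMAD6, the receptor BMPR2 and the ligands BMP2 and TGFB1. CCN2, a matricellular target of YAP, rose from 1734, 1664 and 1671 to 10938, 10680.1 and 10554 (2.67, SE 0.050, limma adjusted p = 1.41e-15), although 13 of 25 tested YAP and TEAD targets were lower and 9 higher.

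Potassium channel genes were mostly lower, and guidance genes moved in both directions. Of 95 potassium channel genes 29 passed the minimum mean, and of these 20 were lower and 3 higher (median -0.97). Besides KCNJ15, the delayed rectifier KCNA1 went from 1256, 1192 and 1163 to 103, 106 and 108 (-3.50, SE 0.082, limma adjusted p = 1.33e-14) and the calcium-activated KCNMA1 from 3127, 3264 and 3103 to 843, 849 and 796 (-1.93, SE 0.054, limma adjusted p = 7.72e-14). Of 54 clustered protocadherins 21 passed the minimum mean, and of these 11 were lower and the others not called. There were 10 lower under edgeR and under DESeq2, and 9 lower and 1 higher under quantile normalization. PCDHGC3 fell by 0.85, and 40.1% of its exon bases are shared with other genes of the γ cluster. Semaphorins, plexins and ephrins, the guidance cues of axons, split into 23 lower and 15 higher of 45. PLXNA4 went from 1636, 1630.0 and 1804 to 97.9, 101 and 102 (-4.06, SE 0.087, limma adjusted p = 5.38e-15) and the coreceptor NRP1 from 4838, 4659 and 4396 to 601, 595 and 539.8 (-3.0, SE 0.070, limma adjusted p = 1.34e-14), while PLXNA3 rose by 2.12, SEMA6A by 2.67 and the ephrin EFNB2 from 179, 188 and 205 to 1292, 1227 and 1333 (2.75, SE 0.096, limma adjusted p = 1.09e-12).

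Receptor tyrosine kinases were lower in 9 and higher in 6 of 20. The collagen receptor DDR2 fell from 6137, 5544 and 5314 to 1156, 1111 and 1239.9 (-2.27, SE 0.058, limma adjusted p = 3.11e-14), as did PDGFRB (-1.97) and ROR1, a Wnt receptor (-2.21), while FGFR1 rose by 0.83. Among glial genes, CSPG4, the NG2 proteoglycan of oligodendrocyte precursors, fell from 1749, 2202 and 2306 to 439.8, 465 and 419 (-2.23), the gap junction gene GJA1 from 6141, 5985 and 5668 to 1319, 1354 and 1394 (-2.13), and CLU, a secreted chaperone of astrocytes, rose from 1754, 1990.1 and 2045 to 8523, 8614 and 8433 (2.15). Of 8 tested astrocyte markers 1 was higher and 4 were lower, and of 5 neuronal markers 2 were higher (TUBB3 and MAP2) and 2 lower, with DCX, NEFL, NEFM and STMN2 at 0 throughout. Tubulins were higher in 8 and lower in 4 of 14, with TUBB4B from 11377, 14542 and 15463 to 37157, 37889.7 and 36374 (1.44, SE 0.078, limma adjusted p = 1.6e-10), TUBA1A at 1.61, and TUBB, prominent in dividing cells, at -1.0. Of the transcription factor families, SOX13 rose by 2.66 while SOX9 (-1.35) and SOX2 (-0.60) fell among 10 tested SOX genes (3 higher, 5 lower). KLF genes split into 6 higher and 6 lower of 13, and 4 higher and 7 lower under equal totals, with KLF2 at 1.84, KLF4 at -0.73 and KLF11 from 247, 223 and 209 to 14.7, 26.6 and 18.4. HOXB2, 1 of 2 tested HOX genes, fell by 1.49.

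Genes of p53 and of cell survival moved in both directions. Of 26 tested p53 targets 15 were higher and 8 lower (median 0.56). CDKN1A, the cell cycle inhibitor p21, had 209.6, 289.7 and 266 in DMSO and 7095, 7193 and 6638 in AZD5153. TP53INP1 rose by 2.41 (SE 0.099, limma adjusted p = 5.78e-12) and the stress sensor GADD45A by 1.55 (SE 0.10, limma adjusted p = 2.23e-09). In the BCL2 family, 5 of 12 tested genes were lower and 2 higher. BCL2, which blocks apoptosis, went from 275, 272 and 275 to 48.3, 62.5 and 53.9 (-2.31, SE 0.16, limma adjusted p = 4.2e-09). MCL1, also antiapoptotic, rose from 7469.5, 7931 and 7762 to 13714, 13813 and 13652 (0.83, SE 0.040, limma adjusted p = 3.65e-11), as did the proapoptotic BCL2L11 (BIM), from 414, 417 and 405 to 973, 986 and 1044 (1.28, SE 0.063, limma adjusted p = 5.4e-11).

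Some genes were at or near 0 in 1 treatment and clearly counted in the other. With at most 3 reads in every library of 1 treatment and at least 30 in every library of the other, 26 genes were switched off and 5 switched on by this definition. The limits are on reads, and the DMSO libraries were deeper, with a median of 21823948 reads on genes against 17222458 for AZD5153. The definition therefore favours genes switched off, and the 2 counts are not compared. TESMIN, a metallothionein-like protein of the germ line, had 144, 208 and 240 reads in DMSO and 2, 3 and 3 in AZD5153. TP63, a p53 relative of epithelia, had 106, 162 and 114 reads and then 3, 0 and 0. B3GNT7, a glycosyltransferase, had 80, 212 and 146 reads and then 0, 1 and 1. NDP, the Wnt receptor ligand norrin, had 83, 94 and 75 reads and then 1, 0 and 0, and SLC14A1, a urea transporter, had 52, 105 and 87 reads and 0 in all AZD5153 libraries. Other genes switched off were the immune receptor TNFRSF14, the PD-1 ligand PDCD1LG2, the interferon-induced GBP4, the potassium channel KCNN3 and the stem cell factor SALL4. In the other direction TENT5C, a poly(A) polymerase, had 0, 0 and 3 reads in DMSO and 54, 56 and 39 in AZD5153. Apart from FCGR1A and TENT5C, the genes switched on have no symbol. These are reads and not fold changes, since a fold against so few reads is not defined.

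The shares of rises and falls by level of expression depended on the libraries that set the level. Genes were placed in 7 bands by their mean normalized count over the 12 libraries, which is a count per gene and not per length. Among 2483 genes with means of 10 to 30, 20.0% were higher and 21.4% lower. In the band from 100 to 300 the shares were 31.1% and 40.8%, and from 1000 to 3000 they were 41.9% and 35.6%. Among the 228 genes with means of at least 10000, 64.9% were higher and 20.2% lower. This mean includes AZD5153 libraries, so a gene that rose is placed higher and a gene that fell lower, and the same holds for the mean of the 48-hour libraries (65.2% and 19.0%). The DMSO libraries of 48 hours enter neither side of the comparison at 24 hours, and bands by their mean were added after the data were seen. By that mean, 36.7% were higher and 40.9% lower from 1000 to 3000, 38.3% and 43.0% from 3000 to 10000, and of 185 genes of at least 10000, 98 were higher and 54 lower. In the lowest band 475 were higher and 295 lower of 1902. Genes of this band that fell could miss the minimum mean over all 12 libraries, so no result is read from this excess of rises. With bands by all 12 libraries, quantile normalization gave 41.7% higher and 37.7% lower in the highest band. This method gives every library the same set of values, which limits rises among the most abundant genes by design. It therefore cannot decide whether the highest band holds an excess of rises. Equal totals gave 54.4% and 28.1%. The median SE was 0.448 in the lowest and 0.049 in the highest band by all libraries. The top 100 genes of each library held 17.9% to 18% of normalized counts in DMSO and 23.2% to 23.5% in AZD5153. Genes with at least 10 normalized counts numbered 15228 to 15618 in DMSO and 15155 to 15317 in AZD5153, ranges that overlapped.

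**Figure D3:**
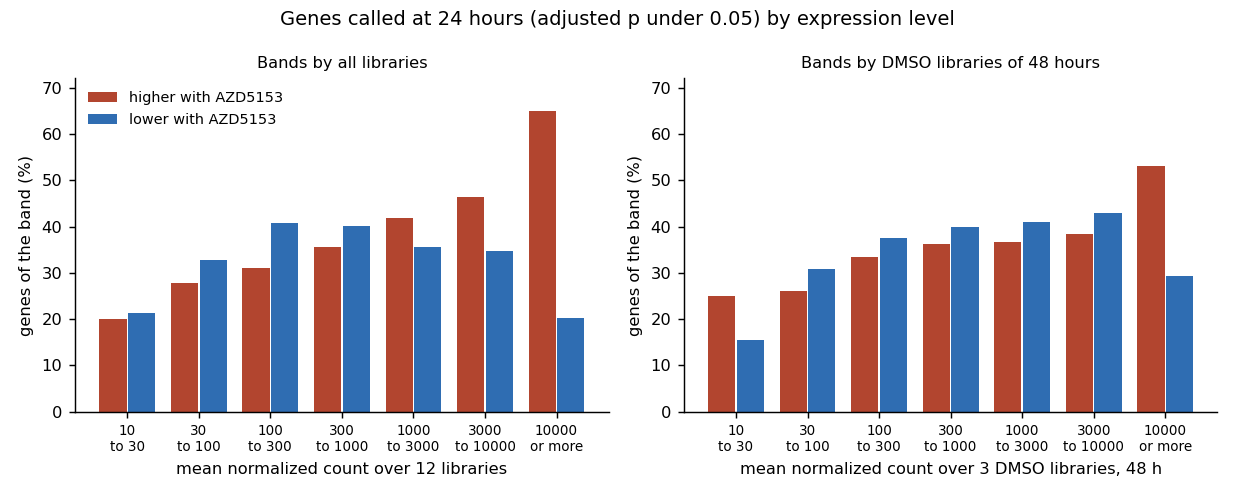
Percent of genes called higher or lower with AZD5153 at 24 hours (y axis, adjusted p under 0.05) in 7 bands of mean normalized count (x axis), on the left by the mean over 12 libraries and on the right by the mean over the 3 DMSO libraries of 48 hours. Rises are at 64.9% in the highest band on the left and are 98 of 185 genes on the right, where falls exceed rises from 30 to 10000 counts.

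The shares of rises and falls also varied with gene class and length. Of 12757 tested protein-coding genes 34.9% were higher and 38.1% lower, and of 1803 long noncoding RNA genes 30.4% were higher and 20.9% lower. Within the band of means from 300 to 1000 the shares were 35.0% higher and 40.9% lower for protein-coding genes and 54.8% and 21.4% for 84 long noncoding RNA genes. Of 52 tested small RNA genes 21 were higher. Protein-coding genes shorter than 3 kb from first to last base were higher in 43.3% and lower in 23.2% of 393 cases, and those of at least 300 kb in 27.1% and 49.9% of 547. The median log2 fold change passed from 0.27 to -0.27 between these ends. Among the autosomes, chromosome 18 had the lowest share of rises, 21.1% higher and 43.6% lower of 218, and genes of chromosome 19 were higher in 35.1% and lower in 24.2% of 1089. These shares come from features that overlap, and no test was made of them.

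Of the 10679 genes called at 24 hours, 8280 (77.5%) were called in the same direction at 48 hours, 253 in the opposite direction and 2146 were not called there. The AZD5153 effect at 24 hours differed from that at 48 hours in 3829 genes (24.5%, limma test of the difference, adjusted p under 0.05). By the absolute log2 fold change, 1898 of them had the larger effect at 24 hours and 1931 the larger at 48 hours. Of the 3829 genes, 766 were not called at 24 hours. Of 17 tested genes of AP-1 and the early growth response, 11 differed between times. EGR1 had an effect of 1.96 at 24 and 0.68 at 48 hours (limma adjusted p of the difference = 1.18e-05), JUNB of 1.15 and 0.03 (limma adjusted p = 0.000252), and ATF3 of 1.80 and 0.28 (limma adjusted p = 0.00183). SERPINI1 went from 3.04 to 1.79 (limma adjusted p = 2.13e-06), CCN2 from 2.67 to 1.60 (limma adjusted p = 1.18e-07) and ID3 from 2.66 to 1.42 (limma adjusted p = 4.52e-05), whereas the effects on ID1 (3.47 and 3.42) and HEXIM1 (2.17 and 2.05) were not called different.

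Other falls were larger at 48 hours. ICAM1 had an effect of -2.58 at 24 and -5.75 at 48 hours (limma adjusted p of the difference = 0.000159), HES1 of -3.25 and -6.29 (limma adjusted p = 0.000179) and FAP of -3.85 and -6.07 (limma adjusted p = 2.75e-06). HES1 had only 1.8, 3.3 and 0.9 normalized counts with AZD5153 at 48 hours, and with 10 in place of 1 added to each count its effects were -2.67 and -4.26 (limma adjusted p = 0.000486). The matrix genes COL6A3 and FN1 also fell further, with COL6A3 at -1.42 and -2.82 (limma adjusted p = 5.01e-10) and FN1 at -1.04 and -2.01 (limma adjusted p = 1.17e-07), but COL1A2 went from -2.26 to -1.92 (limma adjusted p = 0.00522) and COL1A1, at -1.70 and -1.66, was not called different (limma adjusted p = 0.81). The fall of TNFSF15 was smaller at 48 hours, going from -5.80 to -4.28 (limma adjusted p = 0.000593), and SOX9 from -1.35 to 0.16 (limma adjusted p = 2.23e-07). SLC20A1, a phosphate transporter, passed from 0.36 to -0.57 (limma adjusted p = 4.13e-08) and INSIG1 from -0.21 to 0.28 (limma adjusted p = 0.000612), as did ISG15, from 0.64 to -0.41 (limma adjusted p = 0.00105), all 3 called at each time in opposite directions. Under quantile normalization SLC20A1 was at 0.05 at 24 hours and was not called. The NRF2 targets PRDX1 and GCLM had larger effects at 48 hours, with GCLM at 1.40 and 1.88 (limma adjusted p = 0.0005) and PRDX1 at 2.28 and 2.67 (limma adjusted p = 0.000195). Each time has its own DMSO libraries, so a difference between times holds changes in DMSO too.

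**Figure D4:**
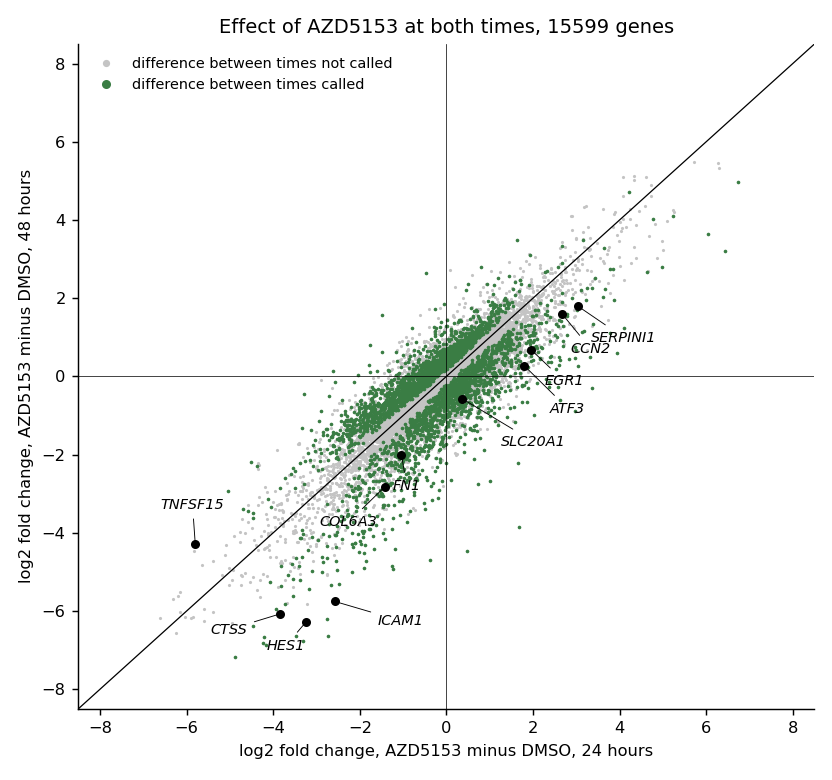
Log2 fold change of AZD5153 minus DMSO at 24 hours (x axis) and at 48 hours (y axis) for 15599 genes, with the line of equal effects. The 3829 genes whose effect differed between times are green, and 11 named genes are black, of which ICAM1, HES1 and FN1 lie under the line and TNFSF15 above it.

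RefSeq promoters were matched for 10416 of 12726 tested protein-coding genes with a symbol (81.8%), each 250 bases before and 50 after the start, and 18 motifs were counted on both strands. The TATA box letters TATAAA, on the gene's strand and starting 40 to 20 bases before the start, were in 177 of the 10416 promoters (1.7%). They were in 2.37% of promoters of genes called higher, in 5.66% of those past a log2 change of 1 and in 15.5% of those past 2, which is 32 of 206. Without replication-dependent histones, of which 46.9% held the box, the share past 2 was 10.0%. Among genes called lower the shares were 1.39%, 1.99% past 1 and 3.56% past 2. Besides H2BC21 and HEXIM1, genes with the box among those described here were ID1, ID4, H2BC5, H2BC8, FOS, JUNB, HES6, CCN2, MT2A, MT1X and RPLP0, which were higher, and VCAM1, ICAM1, CXCL8, TRPM8, HMGCS1 and INSIG1, which were lower. On either strand and anywhere in the 300 bases, TATAAA was in 5.68% of all promoters, and genes called higher (5.9%) and lower (5.93%) hardly differed in this wider search. The shares there were 10.0% of genes higher and 7.09% of genes lower past a log2 change of 1, and 8.18% of those higher without replication-dependent histones.

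Genes that fell more often held TTTGAA, the core of the cell cycle homology region known from genes of late cell cycle phases. It was in 9.66% of all promoters, in 6.83% of those of genes called higher and in 13.1% of those called lower, and the share was 16.2% past a log2 fall of 1 and 19.0% past 2. Among rises it was 7.36% past 1 and 11.2% past 2, the latter above the share of all promoters, and 8.33% past 2 without replication-dependent histones. Without the S and G2/M genes of the Seurat lists the share was 12.6% among genes called lower and 9.43% overall. Letters rich in A and T are more common where GC content is low, and genes with promoters under 45% GC were lower in 52.9% and higher in 22.9% of 471 cases. Within the band of 65% to 75% GC, genes with TTTGAA were lower in 49.1% of 171 and genes without it in 32.0% of 3633, and under 45% GC the shares were 53.3% of 184 and 52.6% of 287. GGGCGG (the GC box) was in 75.6% of promoters of genes called higher and 66.1% of those called lower, against 70.1% of all promoters. It was in 134 of 206 promoters of genes higher past 2 (71.1% without replication-dependent histones) and in 55.4% of those lower past 2. CCGGAAG, the letters of ETS factors, was in 21.3% of promoters of genes called higher and 15.4% of those called lower (19.2% overall), but only in 5.34% of those higher past 2 and 6.93% of those lower past 2. GCGCATGCG, the letters of NRF1, was in 4.9% and 2.46% (3.68% overall), but in 3.4% of those higher past 2 and 1.58% of those lower past 2. A match says only that the letters are in the window.

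**Figure D5:**
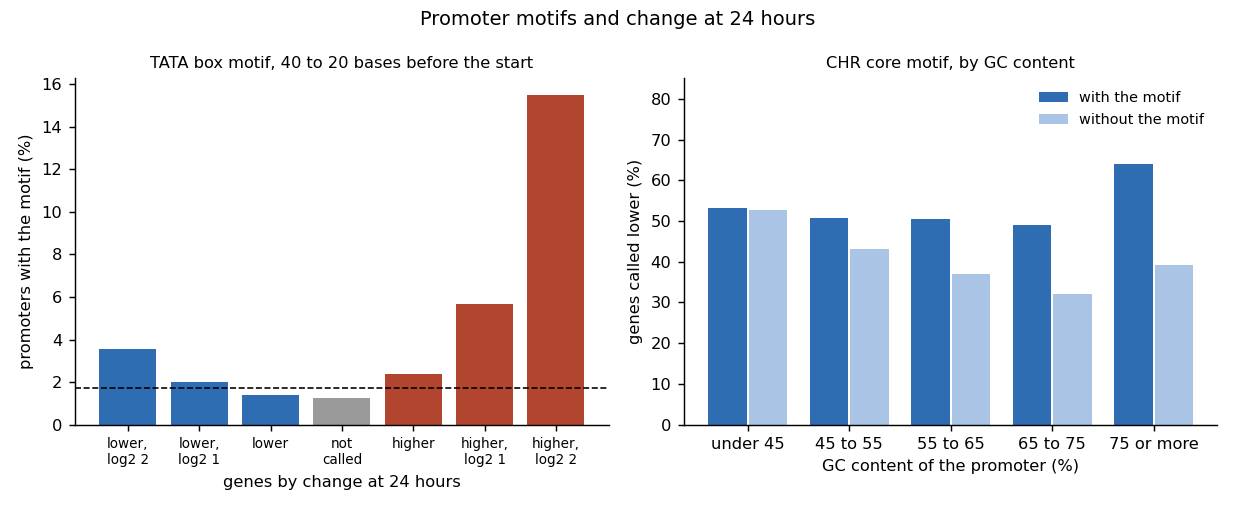
On the left, percent of promoters with TATAAA starting 40 to 20 bases before the gene start (y axis) by change at 24 hours (x axis), with a dashed line at 1.7% of all 10416 promoters, rising to 15.5% for genes higher past a log2 change of 2. On the right, percent of genes called lower with and without TTTGAA (labelled CHR core) in 5 bands of promoter GC content, where the bars are nearly equal under 45% and differ at 65 to 75% (49.1% and 32.0%).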

How the data were processed

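RNA from SF8628 cells, 3 libraries per treatment and time and 12 in all, was sequenced as paired ends. The authors aligned reads to hg38 with STAR, counted them with HTSeq-count and scaled them with DESeq2. Versions, annotation and strand setting are not given in the sources used here. The values the authors deposited are a signal, gene counts divided by a DESeq2 size factor, and 100% came back as whole reads (tolerance 0.01). Deposited columns of the authors' comparison (log2 fold changes, standard errors and statistics as a score, p-values) were not used.

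Genes were tested with limma and a mean-variance trend on log2(value + 1), in 1 fit of 4 groups that left 8 residual degrees of freedom. P-values were adjusted by the Benjamini-Hochberg method, with a call under 0.05. The steps were tested on simulated data, where 195 of 14945 genes were changed by a log2 of 1. There limma recovered 77.9% of them, and 3.8% of its calls were false. In the real data most genes were called, so the simulation does not cover scaling or error rates in that setting. Alternatives were edgeR and DESeq2 on the whole reads, other scalings, pseudocounts and minimum means, and fits without 1 library. Bands by the DMSO libraries of 48 hours and under other scalings, and differences between times with a pseudocount of 10, were added after seeing the data. Genes, gene lists, motifs and markers were chosen with earlier results of these data known. The rule for named genes took the 12 largest rises and falls with a mean of at least 100 (leaving out Seurat cell cycle genes and genes the paper names), the most abundant member and the largest rise and fall of each list, the 5 most abundant genes, switch-like genes and BET markers. Not all of these are described, and other genes were chosen after their values were seen. Some genes are not reported here. Positions are from GENCODE 44. Of 162 genes in the text, 74 share exon bases with another gene, and how reads on shared bases were counted or left out is not stated.

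Software was Python 3.11.15 with numpy 2.4.6, pandas 2.3.3 and matplotlib 3.10.9, and R 4.3.3 with DESeq2 1.42.0, edgeR 4.0.16 and limma 3.58.1.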

Additional observations from a re-analysis of the deposited data

Results flagged for a closer look

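The effect of AZD5153 differed between 24 and 48 hours in 74 of the 162 genes described (limma test of the difference, Benjamini-Hochberg adjusted p under 0.05 over all genes tested), where the share among all genes was 24.5%. The values below are log2 fold changes at 24 hours minus those at 48 hours, each against the DMSO libraries of its own time. They are given as values, and the cause of a difference between times was not tested.

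Rises that were larger at 24 hours had differences of 1.52 for ATF3, 0.40 for ATP6V0A1, 0.39 for B2M, 0.49 for BAMBI, 1.06 for CCN2, 0.28 for CCND1, 0.75 for CDKN1A, 0.63 for DUSP6, 1.28 for EGR1, 1.78 for FCGR1A, 0.25 for FGFR1, 0.38 for FLNC, 0.75 for FOS, 0.72 for GADD45A, 0.56 for GAS5, 1.15 for H2BC18, 1.24 for ID3, 1.08 for IFI6, 1.12 for JUNB, 0.68 for LAMA5, 1.25 for SERPINI1, 0.45 for TP53INP1 and 0.23 for TUBA1A. The value of FCGR1A rests on 2 reads per DMSO library at 24 hours and depends on the 1 added to each count. At 48 hours its DMSO libraries had 17.1, 8.0 and 19.4 normalized counts. With 10 added it was 0.42 and not called (limma adjusted p = 0.227).

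Rises that were smaller at 24 hours had differences of -0.38 for ATP5F1B, -0.18 for CALR, -0.56 for COL4A6, -0.19 for EEF1A1, -0.48 for GCLM, -0.50 for H2BC5, -0.32 for HSP90AA1, -0.22 for NQO1, -0.60 for PKM, -0.26 for POLR2A, -0.39 for PRDX1 and -0.21 for TXNRD1.

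Falls that were smaller at 24 hours had differences of 0.77 for COL4A1, 1.40 for COL6A3, 2.59 for CRYAB, 0.59 for CSF1, 2.23 for CTSS, 2.22 for FAP, 0.98 for FN1, 0.46 for GJA1, 3.04 for HES1, 0.36 for HNRNPUL1, 3.17 for ICAM1, 0.75 for IFI44, 2.26 for ITGA10, 0.52 for LUM, 2.01 for MMP1, 0.32 for PCDHGC3, 0.75 for PSMB8 and 2.30 for RSAD2. With 10 added to each count, the differences were 1.25 for CTSS, 1.59 for HES1 and 0.86 for MMP1, all still called.

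Falls that were larger at 24 hours had differences of -0.92 for AKR1C2, -0.34 for COL1A2, -0.47 for CSPG4, -0.48 for DDR2, -0.68 for FADS2, -0.34 for JAG1, -0.64 for KCNA1, -0.22 for KCNMA1, -0.48 for NOTCH3, -0.26 for PAICS, -0.73 for PLXNA4, -0.55 for ROR1, -0.24 for RPL6, -1.52 for TNFSF15 and -0.63 for WNT5A.

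Fold changes of opposite sign at the 2 times gave differences of 1.18 for IL11, -0.49 for INSIG1, 1.05 for ISG15, 0.93 for SLC20A1, -1.51 for SOX9 and -0.53 for THY1. Of these, SLC20A1, INSIG1 and ISG15 were called at each time, SLC20A1 not at 24 hours under quantile normalization.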

How the results depend on the processing

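The counts of genes called at 24 hours stayed within 1.5 times the main count under 18 alternatives. A minimum log2 change of 1 gave 1690 higher and 2450 lower against 5287 and 5392. The share of higher calls moved with the scaling, from 4340 higher and 6293 lower under equal totals to 5696 and 4973 under quantile normalization. Leaving out 1 library in turn gave 4885 to 5309 higher and 5092 to 5494 lower genes. Genes whose effect differed between times numbered 3829, and between 3076 and 4588 when 1 library of 24 hours was left out. The fit with a replicate block gave 5207 higher and 5319 lower genes. Deviations of libraries with the same replicate number correlated at -0.049, 0.036 and -0.151, and those of DMSO replicate 1 and AZD5153 replicate 3 at 0.154. With 3 libraries per group these values cannot show whether the numbers pair the libraries.

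Of 2897 pairs of a gene and an alternative, 2881 kept direction and call. Quantile normalization turned EEF1A1 to -0.38, RPLP0 to -0.18, HSP90AA1 to -0.12, CALR to -0.05 and FASN to -0.77, and equal totals turned CALR to -0.01. As quantile normalization gives every library the same set of values, its results for genes with high counts are partly set by the method. The cause of these changes was not tested. CALR also lost its call, at 0.07 to 0.12, under scaling by 7 stably expressed genes, without a minimum mean, with the 24-hour libraries alone and without any 1 of AZD5153 replicates 1 and 2 and DMSO replicate 2. Quantile normalization took FN1 to 0.0 and SLC20A1 to 0.05 without a call. For FN1, the gene with the highest count in every library of 24 hours, this value was fixed in advance by the method. Equal totals gave a call for BRD3 (-0.18) and removed that of FASN (0.17). Of 63 lists, 10 had more called members in the opposite direction under a scaling, 2 reached a tie and 3 left one. These data hold 1 line, 1 dose and 3 libraries per group. At low counts, where the median SE was 0.448, only large changes were detectable.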
